A study of Drosophila melanogaster with 9 samples.

Results

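The cecropins of *Drosophila melanogaster* are the products of 4 genes, CecA1, CecA2, CecB and CecC, and these were taken by name from the 17562 gene IDs measured in dissected brains of adult females. All 4 were present in both deposited tables. Cecropins are short, positively charged peptides that are cut from a secreted precursor, fold into helices and break bacterial membranes, above all those of Gram-negative bacteria. In flies they are made mainly by the fat body and by haemocytes after infection and by epithelia that meet microbes, and their transcription is driven by the NF-κB factor Relish at the end of the Imd pathway, which senses bacterial peptidoglycan. CecA1 and CecA2 are near-identical neighbouring copies known as the forms most used by larvae and adults, whereas CecB and CecC were first described as the forms most used around pupation.

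The series asks how peptidoglycan from gut bacteria changes gene expression in the brain. Its 9 poly(A) RNA libraries form 3 groups of 3, each library made from a pool of 20 brains of females aged 4 to 6 days. The groups were wild-type flies kept unexposed, on sucrose by the series text (WT control), wild-type flies given Ecc15, a Gram-negative bacterium, by mouth for 16 h (named WT Ecc15) and, as the third group, mutants of PGRP-LB that received the same exposure (named PGRP-LB Ecc15 here). The product of the mutated gene, an amidase, cuts peptidoglycan into forms that no longer signal, and the deposited columns write the mutant as PGRP-LBD, an allele the labels do not describe further. The strain behind the wild type is not named in the labels, the series text speaks of 24 h in place of 16 h, and no unexposed mutant library was analysed here, so in the mutant libraries genotype and exposure cannot be told apart. Different pools make up the libraries of a group, so p-values set group differences against the spread between pooled libraries. In that spread flies, dissection and library preparation cannot be told apart.

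Values are the authors' normalized counts, rounded to whole numbers and scaled separately in a table for each exposed group with the same 3 controls. They summed to 25.3 to 27.8 M per library, and the number of reads behind these sums was estimated at 19.4 to 30.7 M. At this depth a normalized count of 1 stood for 0.732 to 1.14 reads, so values below 10 carry a large counting error. Neuronal markers were abundant in every library, with a summed value over 6 genes of 178093 to 215133 on a scale common to all libraries, and glial markers summed to 86452 to 121870 over 6 genes. The targeted gene PGRP-LB had values of 164, 120 and 151 in the controls and 687, 1359 and 721 in the mutant libraries of the same table (adjusted p = 0.00134 by limma, a linear model of log2(value + 1) fitted to all genes; genes with an adjusted p under 0.05 are called). The mutant libraries were thus above the controls in PGRP-LB RNA. Because the labels do not say which part of the gene is changed, and because CG17230 overlaps it, this total does not check the genotype.

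The 4 genes lie together on chromosome 3R within 6065 bases of the BDGP6 annotation. CecA1 (FBgn0000276) spans 30210874 to 30211273, CecA2 (FBgn0000277) 30212156 to 30212568 and CecC (FBgn0000279) 30216484 to 30216938, all on the plus strand, and CecB (FBgn0000278) spans 30213315 to 30213797 on the minus strand. Each has 2 exons and a coding sequence of 63 codons, and none overlaps another annotated gene. Exon lengths were 339, 355, 425 and 386 bases for CecA1, CecA2, CecB and CecC. Between CecA1 and CecA2 lies the pseudogene Cec-Psi1, and between CecA2 and CecB the pseudogene Cec2. Reads shared by near-identical copies could be split or dropped by the counting, which makes the values of CecA1 and CecA2 and of both pseudogenes uncertain one by one.

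Unexposed wild-type brains held next to no cecropin RNA. CecA1 had normalized counts of 4, 3 and 10 in WT control libraries S1, S2 and S3, and CecC had 6, 4 and 9. CecA2 stood at 2, 1 and 1 and CecB at 1, 1 and 2. The 4 genes together came to 13, 9 and 22. All 4 passed the filter of a mean of at least 1 over the libraries of a table, and did so on the control libraries alone.

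In wild-type brains exposed to Ecc15 the cecropins were higher in every library than in any control. CecA1 stood at 432, 384 and 125 in WT Ecc15 libraries S1, S2 and S3, a mean of 314 ± 165 (SD, n = 3) against 5.67 ± 3.79 in WT control. CecC stood at 284, 408 and 165, a mean of 286 ± 122 (SD, n = 3) against 6.33 ± 2.52. CecB stood at 82, 100 and 26, and CecA2 at 51, 41 and 19, against controls of at most 2 for both. Library S3 held the lowest value of its group for all 4 genes. The sum of the 4 genes was 849, 933 and 335, or 0.00126% to 0.00353% of a library.

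**Figure D1:**
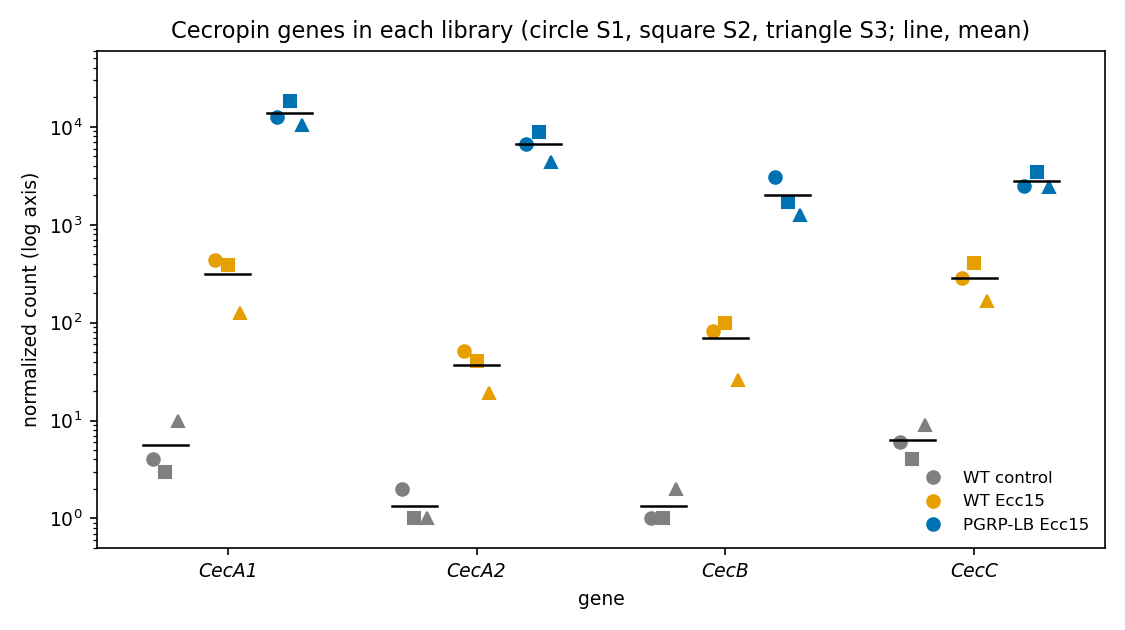
Normalized counts of the 4 cecropin genes on a log axis, 1 point per library (circle S1, square S2, triangle S3) and a line at the mean of each group of 3. The 3 groups do not overlap for any of the 4 genes, and library S3 is the lowest of the WT Ecc15 group for each of them. The share of all genes whose 3 groups stand apart in this way was not counted. Mutant values come from a separately scaled table.

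The rise of CecA1 (log2 change 5.51, SE 0.58), CecC (5.25, SE 0.42) and CecB (4.73, SE 0.57) was called by limma over all genes, with adjusted p = 0.0217, 0.00795 and 0.0442. CecA2 had a log2 change of 3.94 (SE 0.49, limma adjusted p = 0.0533). Thus 3 of 4 genes were called, where 0.122% of the 13085 genes tested were called higher, and in all 4 every exposed library lay above every control, which held for 6.93% of genes. By size of log2 change CecA1 was the third, CecC the sixth, CecB the ninth and CecA2 number 16 of all genes tested, and the median over the 4 was 4.99 against 0.00 over all genes. The authors' deposited table calls all 4, with adjusted p = 1.58e-20 for CecA1, 9.25e-05 for CecA2, 3.53e-07 for CecB and 9.49e-26 for CecC (0.83% of genes in that table are called higher). The summed cecropin value was 43.6-fold higher (log2 5.45, exact two-sided permutation p = 0.1, the smallest that 3 against 3 libraries allow).

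The limma calls in the wild type were lost in some of the fits that left out a single library. Those fits have fewer libraries, and the cause of the lost calls was not tested. The call of CecA1 was lost without WT control S1 or S2 or WT Ecc15 S1 or S2 (log2 change 5.19 to 5.38), that of CecC without WT control S1 or WT Ecc15 S1 or S2 (4.95 to 5.25), and that of CecB without any single library other than WT Ecc15 S3 (4.37 to 4.93; 5.32 without WT Ecc15 S3, where it stayed called). With a pseudocount of 5 the log2 changes were 4.77, 2.65, 3.38 and 4.61 for CecA1, CecA2, CecB and CecC, as the controls are near 0, and CecB was then not called (adjusted p = 0.0646).

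In exposed PGRP-LB mutant brains all 4 cecropins were above their levels in every wild-type library, exposed or not, and CecA1 and CecA2 made up most of them. The share of all genes above every exposed wild-type library was not counted. CecA1 stood at 12527, 18561 and 10514 in PGRP-LB Ecc15 libraries S1, S2 and S3, a mean of 13867 ± 4188 (SD, n = 3) against 5.67 ± 3.79 in WT control. CecA2 stood at 6626, 8862 and 4399, a mean of 6629 ± 2232 (SD, n = 3) against 1.33 ± 0.58. Both had their highest value in library S2 and their lowest in S3. CecC stood at 2474, 3459 and 2417, against 5, 4 and 9 in the controls of this table. CecB stood at 3046, 1722 and 1247, and unlike the other 3 genes it was highest in library S1. The sum reached 24673, 32604 and 18577, or 0.0697% to 0.117% of a library.

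All 4 genes were called higher by limma, where 9.65% of the 13384 genes tested were called higher and 6.26% lower. The log2 changes were 11.44 (SE 0.30) for CecA2, 11.12 (SE 0.39) for CecA1, 9.67 (SE 0.37) for CecB and 8.68 (SE 0.29) for CecC, with limma adjusted p = 6.27e-06, 1.68e-05, 2.25e-05 and 1.34e-05. In size they were number 3, 5, 13 and 21 of all genes tested, and their median was 10.40 against 0.01 over all genes. Every exposed library lay above every control in all 4, as it did in 18.8% of genes. The authors' deposited table calls all 4 as well, with folds of 5226 for CecA2, 2545 for CecA1, 1578 for CecB and 461 for CecC (9.03% of genes in that table are called higher). The summed value was 1710-fold higher (log2 10.74, exact two-sided permutation p = 0.1, the smallest possible). The calls held without any 1 library, but the size of the folds depends on controls of 1 to 10: with a pseudocount of 5 CecA1 (10.36) stood above CecA2 (9.98), and CecB and CecC stood at 8.21 and 7.99.

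Among themselves the cecropins did not keep the same proportions in the 2 exposed groups. By ratios between genes, a measure other than the shares given here, 71.1% of pairs of other antimicrobial peptide genes also stood apart, as given below. Shares of a sum were not computed for those genes. In WT Ecc15 libraries S1, S2 and S3 CecA1 took 50.9%, 41.2% and 37.3% of the summed value and CecC 33.5%, 43.7% and 49.3%. CecB took 9.66%, 10.7% and 7.76%, and CecA2 only 6.01%, 4.39% and 5.67%. In the PGRP-LB Ecc15 libraries CecA2 took 26.9%, 27.2% and 23.7% and CecC 10.03%, 10.6% and 13.01%. CecA1 took 50.8%, 56.9% and 56.6% there, and CecB 12.3%, 5.28% and 6.71%. The shares of CecA2 and CecC thus did not overlap between the exposed groups, while those of CecA1 and CecB did.

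**Figure D2:**
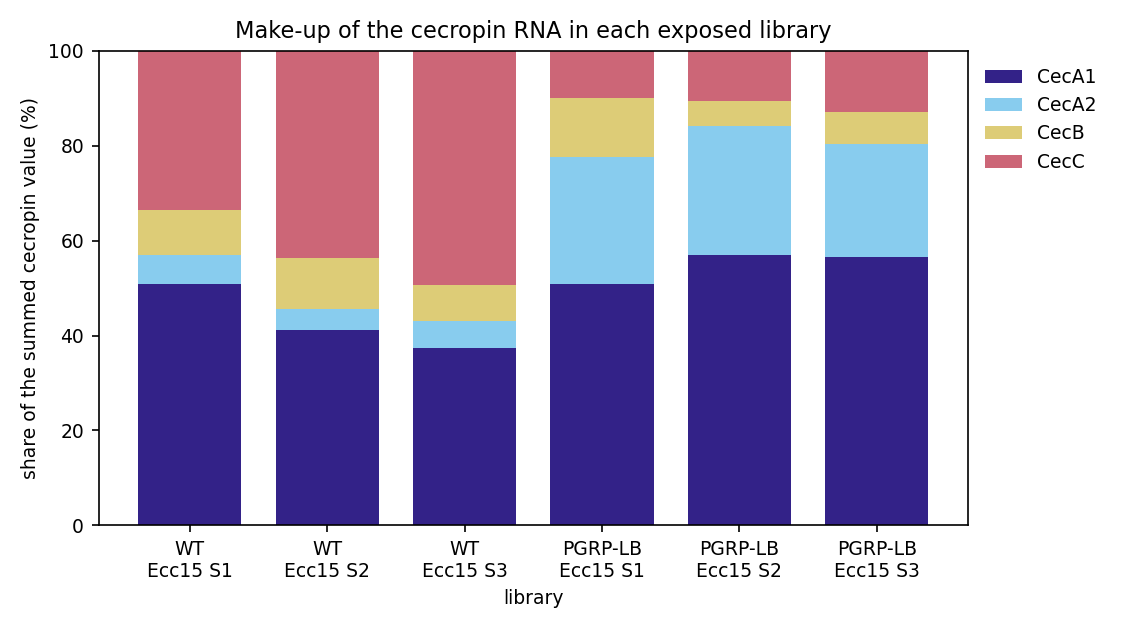
Share of the summed normalized count of the 4 genes held by each gene, 1 stacked bar for each of the 6 exposed libraries. CecA2 (light blue) holds 4.39% to 6.01% in the wild-type libraries and 23.7% to 27.2% in the mutant libraries, and CecC (red) 33.5% to 49.3% and 10.03% to 13.01%.

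Ratios between genes of 1 library do not depend on how a library was scaled, so they can be set across the separately scaled tables. The ratio of CecA1 to CecA2 was 8.47, 9.37 and 6.58 in WT Ecc15 and 1.89, 2.09 and 2.39 in PGRP-LB Ecc15. It is not known whether these near-identical copies match the reference equally well in both strains, which limits what this ratio and the CecA2 share measure. The ratio of CecA1 to CecC was 1.52, 0.941 and 0.758 in WT Ecc15 and 5.06, 5.37 and 4.35 in PGRP-LB Ecc15. CecA2 against CecC moved most, from 0.180, 0.1005 and 0.115 to 2.68, 2.56 and 1.82, an 18.2-fold difference between the geometric means. Of the 6 pairs of cecropin genes compared, 5 had ratios that did not overlap between the groups (exact two-sided permutation p = 0.1 each, the smallest possible, and 0.12 adjusted over the 6 pairs). The pair that overlapped was CecA1 and CecB, at 5.27, 3.84 and 4.81 against 4.11, 10.8 and 8.43 (exact permutation p = 0.3). Among the 10 other antimicrobial peptide genes 32 of 45 pairs (71.1%) had ratios that did not overlap between the same groups. Ratios that stand apart were thus not particular to the cecropins, and pairs that share a gene are not independent.

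Counting CecA1 and CecA2 as 1 gene removes the effect of how reads were split between them, but not of reads that were dropped. Together they took 56.9%, 45.6% and 43.0% of the summed value in WT Ecc15 and 77.6%, 84.1% and 80.3% in PGRP-LB Ecc15, again without overlap. Shares in the WT controls rest on sums of only 9 to 22 and are not compared.

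Per kilobase of exon, which allows levels of different genes to be compared, the order of the means in WT Ecc15 was CecA1 (925), CecC (740), CecB (163) and CecA2 (104 normalized counts per kb). CecA1 and CecC were not separated there, at 369 to 1274 and 427 to 1057, and neither were CecB and CecA2, at 61.2 to 235 and 53.5 to 144, although CecB was above CecA2 in each library. In PGRP-LB Ecc15 the order was CecA1 (40907), CecA2 (18673), CecC (7211) and CecB (4718). CecC and CecB overlapped there, at 6262 to 8961 and 2934 to 7167, while CecA1 and CecA2 stood apart from each other and from both. In WT control CecC and CecA1 had means of 16.4 and 16.7 per kb, and CecA2 and CecB of 3.76 and 3.14.

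Both pseudogenes of the cluster were listed at 0 in all 6 wild-type libraries and had values in the mutant. Cec-Psi1 stood at 23, 44 and 12 and Cec2 at 6, 15 and 3 in PGRP-LB Ecc15 libraries S1, S2 and S3. They reached the filter on low values only through the mutant libraries, so no test is given. These values were 0.0646% to 0.135% and 0.0161% to 0.0460% of the summed value of the 4 genes in the same libraries. At the highest of those percentages the highest sum of WT Ecc15 would give 1.26 for Cec-Psi1 and 0.429 for Cec2, so zeros in the wild type leave little room to tell the groups apart in Cec-Psi1 and none in Cec2.

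The genes around the cluster were taken from the same annotation. Andropin (Anp), a peptide gene of the male reproductive tract that starts the cluster 491 bases before CecA1, was listed at 0 in all wild-type libraries and at 0, 0 and 2 in the mutant. RpS7, a ribosomal protein gene 1853 bases from CecA1, had log2 changes of 0.11 (SE 0.12) in WT Ecc15 and 0.22 (SE 0.12) in PGRP-LB Ecc15. Of the 10 nearest genes, 5 on each side, limma called 0 of the 6 tested in WT Ecc15 and 2 of the 7 tested in PGRP-LB Ecc15 (0.122% and 9.65% of all genes called higher). The 2 were CG43448 (log2 change 1.25) and the serine protease gene CG9733 (4.42), which lie 20155 and 27039 bases beyond CecC. Since 5 of the 10 are small nucleolar or transfer RNA genes, the 5 nearest protein-coding genes on each side were added after their values were seen. This added CG9747, a fatty acid desaturase gene 19621 bases from CecA1, which stood at 613, 1122 and 469 in the mutant and 23, 203 and 21 in the controls (log2 change 3.85, SE 0.84, limma adjusted p = 0.0241). In WT Ecc15 it stood at 874, 31 and 38, so library S1 there was within the range of the mutant. With it 3 of 9 tested coding genes were called higher in PGRP-LB Ecc15.

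**Figure D3:**
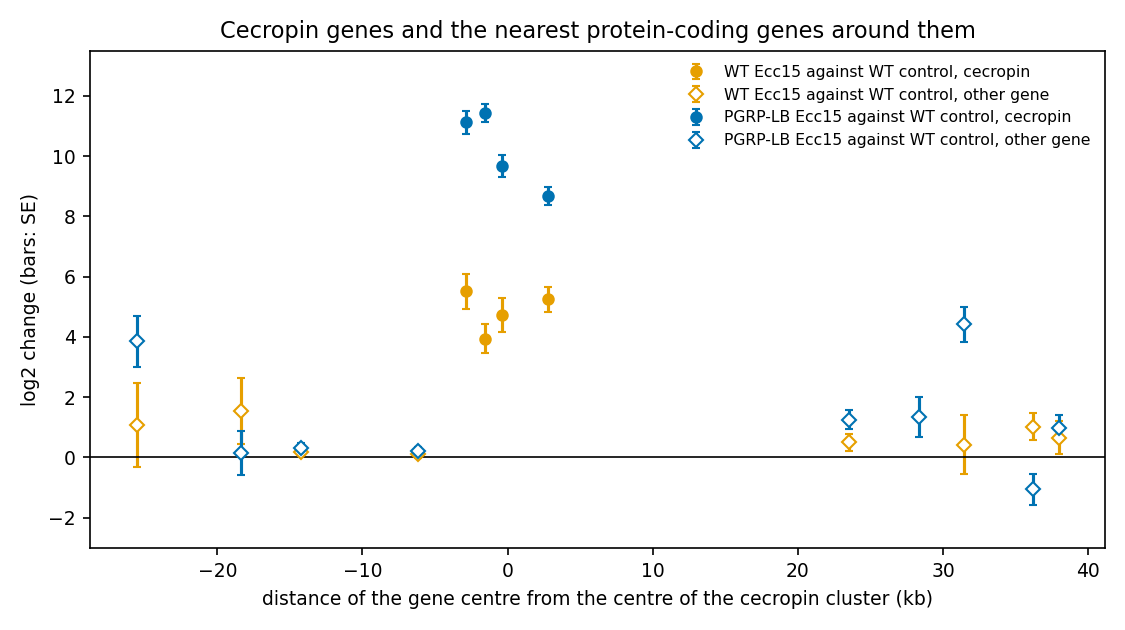
Log2 change against WT control (with SE) of the 4 cecropin genes (filled circles) and of the 5 nearest protein-coding genes on each side that could be tested (open diamonds), by distance of the gene centre from the centre of the cluster in kb. The cecropins reach 3.94 to 5.51 in WT Ecc15 and 8.68 to 11.44 in PGRP-LB Ecc15, and the other genes stay between 0.11 and 1.55 and between -1.06 and 4.42.

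Other antimicrobial peptide genes were also higher in exposed brains. Of 10 such genes limma called 4 higher in WT Ecc15 (0.122% of all genes) and 10 in PGRP-LB Ecc15 (9.65% of all genes). The authors' deposited tables call all 10 in both, where 0.83% and 9.03% of their genes are called higher. In both comparisons all 10 had every exposed library above every control, as did 6.93% and 18.8% of all genes. Their median log2 changes were 5.13 and 9.83, beside 4.99 and 10.40 for the cecropins. Drosocin (Dro), which blocks protein synthesis in bacteria, stood at 2765, 2843 and 1013 in WT Ecc15, with the lowest value in library S3 as for the cecropins. Diptericin A (DptA) stood at 3150, 2425 and 874 and Attacin C (AttC), whose product acts on the outer membrane, at 9144, 11069 and 1692 (limma adjusted p = 0.0542).

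**Figure D4:**
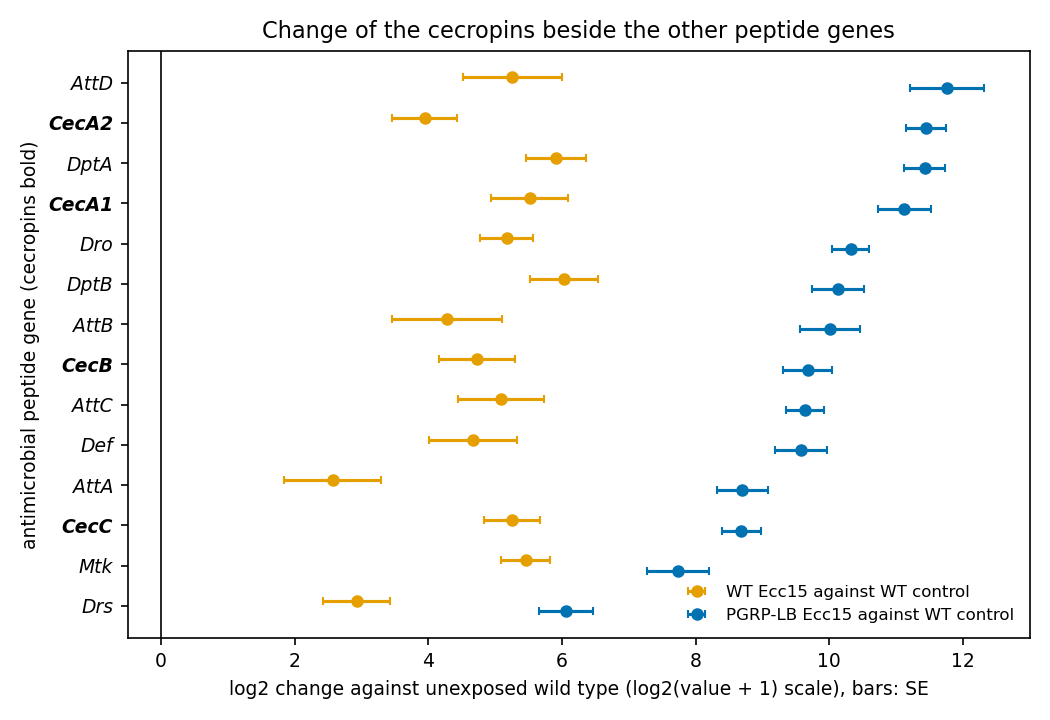
Log2 change against WT control on the log2(value + 1) scale, with SE, for the 4 cecropin genes (bold) and 10 other antimicrobial peptide genes, ordered by the change in PGRP-LB Ecc15. CecA2 is near the top of that order at 11.44 and CecC near its end at 8.68, while in WT Ecc15 CecC (5.25) stands above CecA2 (3.94).

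The genes whose pattern over the 9 libraries, on 1 scale, was most like the mean log2 level of the 4 cecropins were sought among 10353 genes with a mean of at least 10. The 8 with the highest Pearson correlation were Dro (r = 0.997), Defensin (Def, 0.996), AttD (0.996), DptA (0.995), CG45045 (0.994), PGRP-SC2 (0.992), AttC (0.992) and AttB (0.991). The 9 points fall into 3 groups, so such a correlation mostly reflects the order of the group means. AttD and PGRP-SC2 had means below 10 in the controls and passed that filter only through the exposed libraries. Of the 8, 6 are peptide genes from the same list of 10, PGRP-SC2 encodes an amidase, and CG45045 has no role given here.

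Upstream in the Imd pathway limma called 0 of 3 recognition and 1 of 13 intracellular signalling genes in WT Ecc15, where 0.122% of all genes were called higher. It called 2 of 3 and 3 of 13 in PGRP-LB Ecc15, where 9.65% of all genes were called higher and 6.26% lower. The gene called in WT Ecc15 was the factor Relish (Rel), which stood at 2886, 2824 and 2494 against 1680, 1628 and 1613. In PGRP-LB Ecc15 Rel rose 7.79-fold to 11785, 15242 and 11076, key rose 1.17-fold and ben fell by 0.29 on the log2 scale, and the median over the 13 was 0.05. Of the recognition genes, PGRP-SD stood at 1860, 1750 and 790 in WT Ecc15 against 274, 216 and 151 (limma adjusted p = 0.0543). The authors' deposited table calls PGRP-SD there (adjusted p = 2.4e-07). In the mutant it rose to 11627, 17080 and 8372. The receptor gene PGRP-LC rose 5.77-fold in PGRP-LB Ecc15 and had a log2 change of 0.04 (SE 0.16) in WT Ecc15, and PGRP-LE, the intracellular receptor, had log2 changes of -0.09 (SE 0.09) and 0.07 (SE 0.09). A difference between the comparisons was not tested.

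Of 8 inhibitors of the pathway, limma called PGRP-LF in WT Ecc15 (4.82-fold), where 0.122% of all genes were called higher. In PGRP-LB Ecc15, where 9.65% were, it called PGRP-LF (27.9-fold) and pirk (23.6-fold). The authors' deposited table calls pirk in WT Ecc15 too, at 323, 225 and 149 against 113, 54 and 83. The deubiquitinase gene scny had log2 changes of 0.04 (SE 0.05) in WT Ecc15 and -0.06 (SE 0.05) in PGRP-LB Ecc15. Of 6 amidase genes, which remove peptidoglycan, 5 were tested in WT Ecc15 and 1 was called by limma, PGRP-SB1 (18.1-fold). The authors' deposited table calls 3 there, where 0.83% of its genes are called higher. Besides PGRP-SB1 these are PGRP-SC2 (108, 169 and 43 against 6, 1 and 7) and PGRP-LB (335, 261 and 224 against 167, 122 and 154). On control values alone 3 of the 6 passed the filter, and all 3 were called in the mutant, PGRP-SB1, PGRP-SC2 (4191, 8059 and 5228 against 5, 1 and 7) and PGRP-LB itself. The other 3 passed only through the mutant libraries, among them PGRP-SC1b at 76, 114 and 56 against 0, 0 and 1. Of 12 genes of Toll signalling, the other NF-κB pathway of fly immunity, 0 were called in WT Ecc15 by limma and 7 higher in PGRP-LB Ecc15, beside 0.122% and 9.65% of all genes. PGRP-SA, a recognition gene of that pathway, rose 16.6-fold there, spz, the gene of the Toll ligand, 2.62-fold and the NF-κB gene dl 2.08-fold. In WT Ecc15 those 3 had log2 changes of 1.44, 0.08 and 0.40, and the authors' deposited table calls 1 of the 12 there.

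Markers of tissues that make cecropins and can cling to a dissected brain were measured beside these results. In bulk samples fewer cells of a type and less RNA per cell cannot be told apart. Summed haemocyte markers (10 genes, common scale) were 26674 to 34042 in WT Ecc15, above the 19252 to 22075 of WT control, and 15050 to 19266 in PGRP-LB Ecc15. Summed fat body markers (8 genes) were 272369 to 384571 in WT Ecc15, above the 90028 to 240563 of WT control, and 85673 to 536376 in PGRP-LB Ecc15. In WT Ecc15 limma called 0 of 10 haemocyte and 0 of 7 tested fat body markers, 4 and 1 of which are called in the authors' deposited table. Of all genes 0.122% were called higher there by limma and 0.83% are in the authors' deposited table. In PGRP-LB Ecc15 the haemocyte markers PPO1 and PPO2 were called lower and 0 of 10 higher by limma, beside 6.26% and 9.65% of all genes. The authors' deposited table calls 3 lower (with Sr-CI) and 1 higher (crq), where 9.03% of its genes are called higher. The share of its genes called lower was not counted. The haemocyte gene Hml stood at 9481, 12077 and 8363 in WT Ecc15 against 4533, 5237 and 4801 (limma adjusted p = 0.0542) and at 2528, 4814 and 3617 in PGRP-LB Ecc15.

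Within the mutant group the fat body sum was 85673, 536376 and 200708 in libraries S1, S2 and S3, and CecA1, CecA2 and CecC were also highest in S2, but CecB was not. This sum came mainly from apolpp and the yolk protein genes Yp1, Yp2 and Yp3. In these libraries Yp2 stood at 16038, 197115 and 63250 and apolpp at 26025, 60941 and 31965. Of the 7 fat body markers that passed the filter on control values alone, limma called Apoltp higher there (1.94-fold), beside 9.65% of all genes. Fbp2, at 8, 5 and 9 against 0 in the controls, passed only through the mutant libraries, and Fbp1 had a log2 change of -0.76 (SE 0.39). Within WT Ecc15, library S3, lowest in all 4 cecropins, had a fat body sum of 360539 and a haemocyte sum of 28250, neither the lowest of the group. The fat body markers did not all follow their sum. Lsp2 stood at 366, 627 and 71 in WT Ecc15 libraries S1, S2 and S3 and Fbp2 at 1, 4 and 0. Both were thus lowest in S3, while the other fat body markers were lowest in S1. The summed gut enzyme markers (9 genes) of WT Ecc15 S3 were 29.6, against 327 and 312 in S1 and S2, with alphaTry at 80, 87 and 3. In WT control S1, S2 and S3 the gut sums were 169, 29.7 and 43.6, beside low cecropin sums of 13, 9 and 22. In the mutant the gut sum of 1622 to 2870 was almost wholly Amy-p, an amylase gene at 1754, 2722 and 1589, and LManV and Jon66Cii were at 0 or 1 in all 3 mutant libraries. The part of these tissues in the cecropin values was not tested. Markers of the male tract summed to 2.98 to 13.2, mostly from Acp36DE. No neuronal marker of 6 was called in either comparison by limma or in the authors' deposited table (nSyb, Syx1A and elav had log2 changes of -0.13 to 0.09). Of 6 glial markers limma called 4 lower in PGRP-LB Ecc15, among them wrapper, alrm and nrv2, beside 6.26% of all genes. In WT Ecc15 it called 0 of the glial markers, and 0 of the 13085 genes tested were called lower there.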

How the data were processed

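Poly(A) RNA was sequenced from 9 brain pools. The authors' tools were DESeq2, featureCounts, HTSeq and HISAT2 per the submitters' processing notes, which state no role for each. Not given in the sources used here are their strand setting, annotation and build. Library values as deposited are whole numbers that differ between the 2 full tables by 1 factor per shared control (1.013, 1.017 and 1.021), and were treated as a score, namely counts the authors normalized and rounded. The authors' deposited fold (ratio), log2 fold change, p-value and adjusted p-value were used only where named. The other 10 deposited tables were not used. Each library's scaling factor, and so its reads, was estimated from gaps and doublings among low values, by a procedure tested on simulated data. Columns carry marks S1 to S3 that match no replicate number of the labels.

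Within each table limma-trend (limma 3.58.1, R 4.3.3) was run on log2(value + 1) two-sided, over genes whose mean reached 1; p-values were adjusted after Benjamini and Hochberg and called under 0.05; the fit was tested on simulated data. Folds are powers of these log2 changes and understate those of low genes. Tests are within a table, levels across tables stand side by side, and marker sums and likeness use all 9 libraries on 1 scale (median-of-ratios factors of 0.985 to 1.01). Members and gene lists were chosen with earlier results of these data known. Named genes are the 4 members, up to 3 genes per list with the smallest adjusted p in either comparison, the 5 nearest genes on each side, the 8 most alike and PGRP-LB. The pseudogenes, CG9747, alphaTry, crq, Sr-CI, Drs, Mtk, CG17230, apolpp, Lsp2, Yp1, Yp2 and Yp3 were added after values were seen. Locations are by symbol from BDGP6 (16839 of 17562 IDs matched). A planned search for promoter motifs was not run, as no promoter sequence was used here.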

Additional observations from a re-analysis of the deposited data

How the results depend on the processing

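In PGRP-LB Ecc15 against WT control all 4 genes stayed called in the 14 alternatives run, with log2 changes of 10.36 to 11.56 for CecA1, 9.98 to 11.81 for CecA2, 8.21 to 10.04 for CecB and 7.99 to 8.97 for CecC, and limma adjusted p of at most 0.000908. In WT Ecc15 against WT control every log2 change stayed positive. Calls were lost without the mean-variance trend (CecA1 5.51, CecB 4.73, CecC 5.25, so 0 genes called by limma, though 4 at an unadjusted p under 0.05), and CecB lost its call with a pseudocount of 5 (3.38), with no filter on low values (4.73) and with a mean of at least 10 (4.73). With all 9 libraries in 1 fit CecA2 was called too (3.93, limma adjusted p = 0.0045). Leaving out single libraries gave 0 to 3 genes called, with log2 changes of 5.19 to 6.08 for CecA1, 4.37 to 5.32 for CecB, 4.95 to 5.60 for CecC and 3.66 to 4.35 for CecA2 (limma adjusted p up to 0.335), and 4 genes at an unadjusted p under 0.05 each time. Each of those fits has fewer libraries, and the cause of the lost calls was not tested. The log2 ratio of the summed value stayed within 5.10 to 5.92 and 10.37 to 11.08. Counting CecA1 and CecA2 as 1 gene raised the share of 54.8% held by CecA1 in PGRP-LB Ecc15 to 80.7%, by construction. No paired analysis was possible because the wild-type groups share 1 replicate number and the columns carry none. Control values of 1 to 10 limit every fold against WT control.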

Other observations

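The levels of the exposed groups were also set side by side with all 9 libraries on 1 scale. The differences themselves use no low control, but their SEs come from a fit that includes the WT control libraries. The spread of those low values thus enters the SEs. Since the tables were scaled separately by the authors, these differences are a description and carry no p. On that scale CecA2 had a mean of 6714 in PGRP-LB Ecc15 and 36.6 in WT Ecc15, a log2 difference of 7.53 (SE 0.39, limma). CecA1 differed by 5.64 (SE 0.51, means of 14047 and 310.3), CecB by 4.97 (SE 0.51, means of 2029 and 68.6) and CecC by 3.39 (SE 0.35, means of 2819 and 282). Each mutant library lay above each exposed wild-type library for all 4 genes. The share of all genes for which this holds was not counted. Leaving out each exposed library in turn, an alternative added after seeing the data, gave 7.12 to 7.82 for CecA2, 5.08 to 5.97 for CecA1, 4.39 to 5.34 for CecB and 3.04 to 3.69 for CecC.

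Among the 14 antimicrobial peptide genes examined CecA2 had the largest of these log2 differences and CecC stood at number 12, above Drs (3.14) and Mtk (2.30). The 10 peptide genes other than cecropins lay between 2.30 (Mtk) and 6.54 (AttD), with a median of 5.04, so CecA2 at 7.53 was outside their range and the other 3 cecropins inside it. Reads of CecA2 could be split with its near-identical copy CecA1 or dropped, so the difference and place of CecA2 are uncertain. The ratio of CecA1 to CecA2 was 8.47, 9.37 and 6.58 in WT Ecc15 and 1.89, 2.09 and 2.39 in PGRP-LB Ecc15. A log2 difference for both copies counted together was not computed on this scale. Whether CecA2 differs from the other peptide genes was not tested.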
